A study of Homo sapiens with 10 samples.

Results

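The baseline transcriptome of THP-1 macrophages was described from the 3 arrays of cells that received only the vehicle, dimethyl sulfoxide (DMSO), out of 10 arrays in the series. THP-1 is an established human monocytic leukemia cell line. The cells were first differentiated with phorbol 12-myristate 13-acetate (PMA) for 24 hours. Over the next 24 hours they were given either DMSO or a plant polyphenol, which was punicalagin, myricetin or quercetin. The 3 DMSO arrays came from cells at passages 6, 7 and 8, 1 array at each passage. The same 3 passages were used for punicalagin, while the 2 myricetin and the 2 quercetin arrays came from passages 7 and 8. All 10 arrays therefore share the PMA step, and no array of undifferentiated THP-1 was used here, so nothing below separates what PMA induced from what the line expressed before. The cells are 1 leukemia line, and each array is bulk RNA, in which fewer cells of a type and less RNA per cell cannot be told apart. The labels call the DMSO arrays biological replicates and give a passage for each, so the spread reported here is the spread between 3 arrays and passages of 1 line.

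PMA activates protein kinase C, and THP-1 cells that receive it stop dividing, attach and take on features of macrophages. Macrophages are tissue phagocytes of the myeloid lineage. They take up lipoproteins and debris through scavenger receptors, sense microbes through Toll-like receptors and cytosolic sensors, digest what they take up with lysosomal proteases, and secrete cytokines, chemokines and matrix enzymes.

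The array carried 33297 transcript clusters, and 19460 of them were annotated with a single gene symbol. Taking the cluster with the highest mean for each symbol gave 18417 genes, all described on the log2 intensity scale. Below, 3 values given in a row are those of passages 6, 7 and 8. The lower quartile of all clusters was 3.70, 3.63 and 3.63 in the 3 arrays, and the 90th percentile was 8.17, 8.23 and 8.22. A gene below the lower quartile in all 3 arrays was called background, and a gene above the 90th percentile in all 3 was called bright. Probes of different genes differ in affinity, so a place in this distribution describes brightness and does not order genes by the number of their transcripts.

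By these rules 2671 genes (14.5%) were background, 1179 (6.4%) were bright and 14567 (79.1%) lay between. A further 988 genes were below the lower quartile in only 1 or 2 of the arrays, and 820 were above the 90th percentile in only 1 or 2. The line between the classes was fine. LRRC74B at 3.60, 3.63 and 3.45 fell just inside the background class. SH2D7 at 3.70, 3.19 and 3.46 fell just outside it, because its passage 6 value reached that array's quartile.

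The lower quartile was not a limit of detection, as gene families with a known pattern of use showed. Olfactory receptors, which serve sensory neurons of the nose, had 338 measured genes. Of these, 203 (60.1%) were background and none was bright, with a median of 3.21. Their 95th percentile was 4.58 and the highest of them, OR5B21, averaged 5.66. In all, 5836 genes (31.7%) averaged below 4.58, which included 3165 genes outside the background class, and 8794 genes (47.7%) averaged above 5.66. Values under about 4.6 are therefore given below as the range that olfactory receptor genes also occupied. At the other end, 46 of 66 ribosomal protein genes (69.7%) were bright, with a median of 9.48, and none was background.

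**Figure D1:**
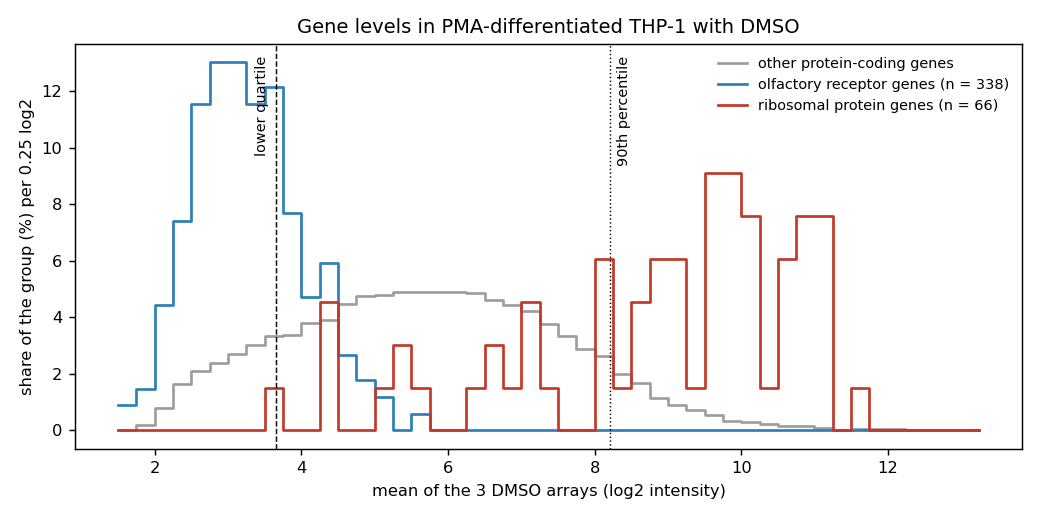
Distribution of gene levels in the DMSO arrays. The x axis gives the mean log2 intensity of the 3 arrays and the y axis the share of each group per bin, for olfactory receptor genes, ribosomal protein genes and the other protein-coding genes. The dashed and dotted lines mark the lower quartile and the 90th percentile of all clusters, averaged over the 3 arrays. The olfactory receptors lie at or below 5.66, and 46 of 66 ribosomal protein genes are bright.

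The cell type named in the labels was checked against 5 markers. CD68, a lysosomal glycoprotein of macrophages, read 10.63, 9.95 and 9.96 (mean 10.18 ± 0.39, SD, n = 3). SPI1, which encodes the myeloid transcription factor PU.1, read 9.46, 9.28 and 9.13 (mean 9.29 ± 0.17). LYZ, which encodes the secreted enzyme lysozyme, read 9.85, 9.58 and 8.83 (mean 9.42 ± 0.53). These 3 markers were bright in every DMSO array. CD14, the co-receptor that hands lipopolysaccharide to Toll-like receptors, was lower in its array's distribution at 6.06, 5.78 and 5.82 (mean 5.90 ± 0.15). CD36, a scavenger receptor for oxidized lipoprotein, read 6.66, 5.54 and 6.29 (mean 6.16 ± 0.57). Both lay above the highest olfactory receptor mean of 5.66, although the passage 7 value of CD36 did not reach it.

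The upstream sequences of a bright and a middling marker, and of the brightest interleukin and chemokine genes, are shown so that the elements discussed for macrophage promoters can be located in them. They are the 250 bases before the RefSeq transcript start in GRCh38.p14, written 5′ to 3′ on the gene's strand. CD68 lies at chr17:7579388-7579637 on the plus strand, CD14 at chr5:140633176-140633425 on the minus strand, IL1B at chr2:112836780-112837029 on the minus strand and CXCL8 at chr4:73740319-73740568 on the plus strand. Capitals mark matches on either strand to 4 motifs. The core bound by PU.1, the product of SPI1, was searched as GAGGAA. The element of the AP-1 factors, which phorbol esters activate, was searched as TGANTCA. The element of the NF-kB type was searched as GGNNNTTCC. The TATA box, which places the start of transcription, was searched as TATAAA.
CD68: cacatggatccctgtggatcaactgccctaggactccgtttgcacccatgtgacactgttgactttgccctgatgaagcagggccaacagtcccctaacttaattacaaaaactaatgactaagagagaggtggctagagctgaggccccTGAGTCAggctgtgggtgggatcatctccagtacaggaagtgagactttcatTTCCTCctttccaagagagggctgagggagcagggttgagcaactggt
CD14: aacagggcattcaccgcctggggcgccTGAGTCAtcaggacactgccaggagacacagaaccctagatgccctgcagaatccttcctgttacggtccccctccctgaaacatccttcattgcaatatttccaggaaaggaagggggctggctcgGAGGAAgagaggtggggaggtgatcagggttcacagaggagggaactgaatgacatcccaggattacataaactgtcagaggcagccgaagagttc
IL1B: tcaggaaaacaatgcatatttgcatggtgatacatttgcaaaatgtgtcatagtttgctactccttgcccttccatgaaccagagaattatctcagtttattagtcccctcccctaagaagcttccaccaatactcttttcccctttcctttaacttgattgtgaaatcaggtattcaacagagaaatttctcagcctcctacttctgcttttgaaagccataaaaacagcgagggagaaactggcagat
CXCL8: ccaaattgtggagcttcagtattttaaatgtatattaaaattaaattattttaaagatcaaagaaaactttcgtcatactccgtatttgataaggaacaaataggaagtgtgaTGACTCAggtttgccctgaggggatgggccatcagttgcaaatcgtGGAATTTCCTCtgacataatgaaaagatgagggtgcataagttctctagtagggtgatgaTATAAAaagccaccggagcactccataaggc

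The CXCL8 window held all 4 motifs, unlike the other windows. In CXCL8 the TATA box began 31 bases before the start, the NF-kB type match 91 bases before it and the AP-1 match 137 bases before it, and the PU.1 core on the opposite strand overlapped the NF-kB type match. CD68 held an AP-1 match 100 bases and a PU.1 core 48 bases before the start. CD14, which was not bright, held the same pair of motifs at 223 and 96 bases. The IL1B window held none of the 4 in these letters, which says nothing of factors that bind elsewhere or to other letters. Such matches were common. GAGGAA was present in 23.6% of all 35116 upstream windows of this length, GGNNNTTCC in 17.1%, TATAAA in 10.7% and TGANTCA in 6.6%. Among protein-coding genes with a single listed start, 26.9% of 631 bright genes and 23.7% of 1466 background genes held GAGGAA. The share with GGNNNTTCC was 21.1% of the bright and 15.3% of the background genes. TATAAA went the other way, with 8.1% of the bright and 20.9% of the background genes, and TGANTCA was present in 5.4% and 8.3%. The motif shares are a description of the 2 classes and were not tested.

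Of 28 measured genes on a list of monocyte and macrophage markers, 11 (39.3%) were bright and 3 were background, against 6.4% and 14.5% of all genes. LAPTM5, a lysosomal membrane protein of blood cells, read 12.27, 11.85 and 11.97. The integrin subunits ITGB2 (mean 11.90 ± 0.065), ITGAX (11.52 ± 0.40) and ITGAM (10.23 ± 0.38), which pair into complement receptors, were all bright. So were the signalling adaptors TYROBP at 11.86, 10.77 and 10.96 and FCER1G at 9.73, 9.46 and 10.17. CSF1R, the receptor for the macrophage growth factor CSF1, read 10.64, 10.55 and 10.04. The remaining bright members were PTPRC and the 3 markers given above.

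Other macrophage markers were low. The hemoglobin scavenger receptor CD163 averaged 4.20 ± 0.21 and the co-stimulatory ligand CD86 averaged 4.56 ± 0.25, both inside the olfactory receptor range. The mannose receptor MRC1 (3.46, 2.74 and 3.03), the calcium-binding protein S100A8 (3.32, 2.96 and 3.20) and ADGRE1 (3.42, 3.37 and 3.55) were background in all 3 arrays.

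**Figure D2:**
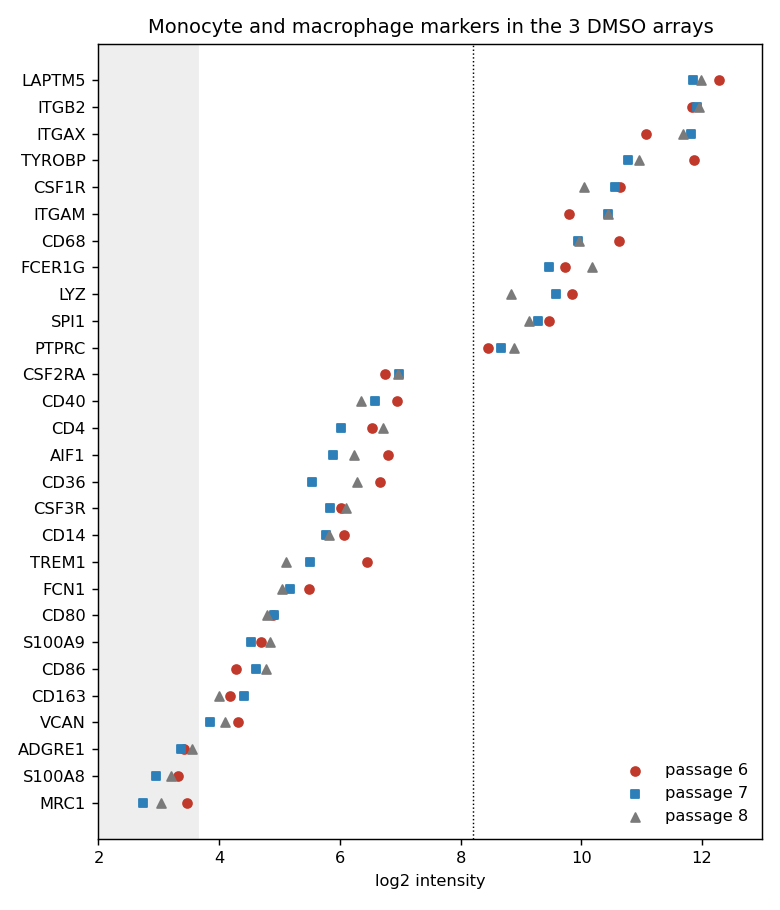
Monocyte and macrophage markers in the DMSO arrays. Each row is a gene and each point is 1 array, at passage 6, 7 or 8, on the log2 intensity scale. The shaded area lies below the mean lower quartile and the dotted line is the mean 90th percentile. The 11 bright genes stand apart from the rest, with PTPRC the lowest of them, and ADGRE1, S100A8 and MRC1 lie in the shaded area.

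Markers of other cells were read in the same arrays. Over 11 lists, for T, B and NK cells, granulocyte precursors, erythroid cells, platelets, endothelium, epithelium, fibroblasts, hepatocytes and neurons, 99 genes were measured and none was bright. Of these genes 25 were background and 52 averaged below 4.58. Their median was 4.51, 4.43 and 4.20 in the 3 arrays. Among the T cell markers, CD3E (3.19, 3.36 and 3.31), CD3G, CD2, CD28 and TRAT1 were background. The epithelial adhesion gene EPCAM averaged 3.50 ± 0.082 and the B cell gene MS4A1 averaged 3.18 ± 0.33.

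Only 5 of the 99 had a mean place above the 75th percentile of their arrays. The neutrophil elastase gene ELANE read 8.02, 7.55 and 7.72, and AZU1, another azurophil granule gene, read 7.59, 7.50 and 7.68. PRTN3, which encodes proteinase 3 and is normally used by granulocyte precursors, read 6.89, 6.79 and 6.71. The others were KRT18, a keratin of simple epithelia (mean 7.34 ± 0.19), and CD22, a sialic acid-binding receptor of B cells (7.44, 6.73 and 7.07). In contrast to ELANE and AZU1, the peroxidase gene MPO of the same granules was in the olfactory receptor range at 3.60, 3.67 and 3.84, and MS4A3 was background.

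Among 34 measured myeloid lineage factors, 5 were bright, 28 lay between and 1, MEIS1, was background. Besides SPI1 the bright factors were ZEB2 (9.14, 9.49 and 9.61), RUNX1 (8.92, 9.25 and 9.17), JUN (8.40, 8.34 and 8.27) and EGR1. EGR1, an immediate early gene of the response to growth signals, differed more between arrays and read 10.63, 9.66 and 8.95. The lineage factors CEBPA (mean 7.43 ± 0.29) and IRF8 (7.49 ± 0.32) lay between.

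The list for protein kinase C, on which PMA acts, also held genes outside that family, of the RASGRP and PRKD groups. It had 15 measured genes, of which 1 was bright. PRKCD, which encodes the delta isoform, read 9.43, 9.63 and 9.64. PRKCB (mean 8.13 ± 0.084) and PRKCA (8.05 ± 0.18) lay just under the 90th percentile. PRKCQ, the isoform best known from T cells, was background, as were RASGRP1 and PRKD1.

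Receptors for microbes were mostly of middling brightness. Of 15 Toll-like receptor and adaptor genes, only UNC93B1, the chaperone that brings endosomal Toll-like receptors to their compartment, was bright (8.57, 8.77 and 8.84). TLR2 read 8.03, 8.33 and 8.71, with passage 6 under the 90th percentile. TLR4, the lipopolysaccharide receptor, averaged 7.21 ± 0.21. Its partner LY96 averaged only 3.73 ± 0.24, inside the olfactory receptor range. TLR3 (2.99, 2.55 and 2.70) and TLR8 (2.43, 2.37 and 2.73), which sense RNA, were background.

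Of 20 cytosolic sensor and inflammasome genes, NLRP3, the sensor of the best known inflammasome, was bright at 9.24, 8.93 and 8.59. Its adaptor PYCARD averaged 6.83 ± 0.43 and the DNA sensor AIM2 averaged 3.92 ± 0.085. CASP5 was background. All other members lay between.

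Complement and Fc receptors held several bright genes. Beside the integrins, C5AR1 (9.56, 8.70 and 8.31) and C5AR2 (8.84, 9.89 and 8.55), both receptors for the complement fragment C5a, were bright, as was CD55, which limits complement on the cell surface. CR1 and CR2 were background. Of 9 measured Fc receptor genes, FCER1G and FCMR were bright, while FCGR3A (2.55, 2.13 and 2.40) and FCER1A were background. FCGR2A averaged 7.16 ± 0.43 and FCGR2B 5.32 ± 0.53, and since their sequences are nearly identical over long stretches, signal could have been shared between them.

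Among 22 scavenger receptor genes CD68 was the only bright one and none was background. SCARB2 (mean 8.36 ± 0.20) and SCARB1 (8.31 ± 0.26), relatives of CD36 with roles in lysosomes and in lipoprotein uptake, came next. MSR1, the class A scavenger receptor, read 7.88, 6.73 and 6.45. No member of the 21 measured C-type lectin receptors was bright and 9 were background, CLEC7A and CLEC4E among them. No chemokine receptor of 25 was bright either, and CCR2, the receptor that marks circulating monocytes, was background at 3.07, 3.19 and 3.58. The highest chemokine receptor was CCR7 with a mean of 6.18 ± 0.35.

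Receptors for cytokines were brighter, with 8 of 38 above the 90th percentile in all arrays and 5 in the background class. Both chains of the interferon gamma receptor, IFNGR1 (8.66, 8.77 and 9.49) and IFNGR2 (10.13, 10.36 and 10.29), were bright. The same held for IL17RA, TNFRSF1B, IL6R, IL10RB, TGFBR1 and CSF1R. IL18R1, IL18RAP and IL1RL1, which bind interleukins of the IL-1 family, were background together with LIFR and IL13RA2. Of 39 nuclear receptor genes 1 was bright. PPARD, a fatty acid sensor, read 9.38, 9.80 and 9.21, its relative PPARG averaged 6.96 ± 0.18, and the oxysterol receptor gene NR1H3 averaged 5.49 ± 0.15. None of 9 measured MHC class II genes was bright, the highest being HLA-DMA at 6.13 ± 0.28.

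**Figure D3:**
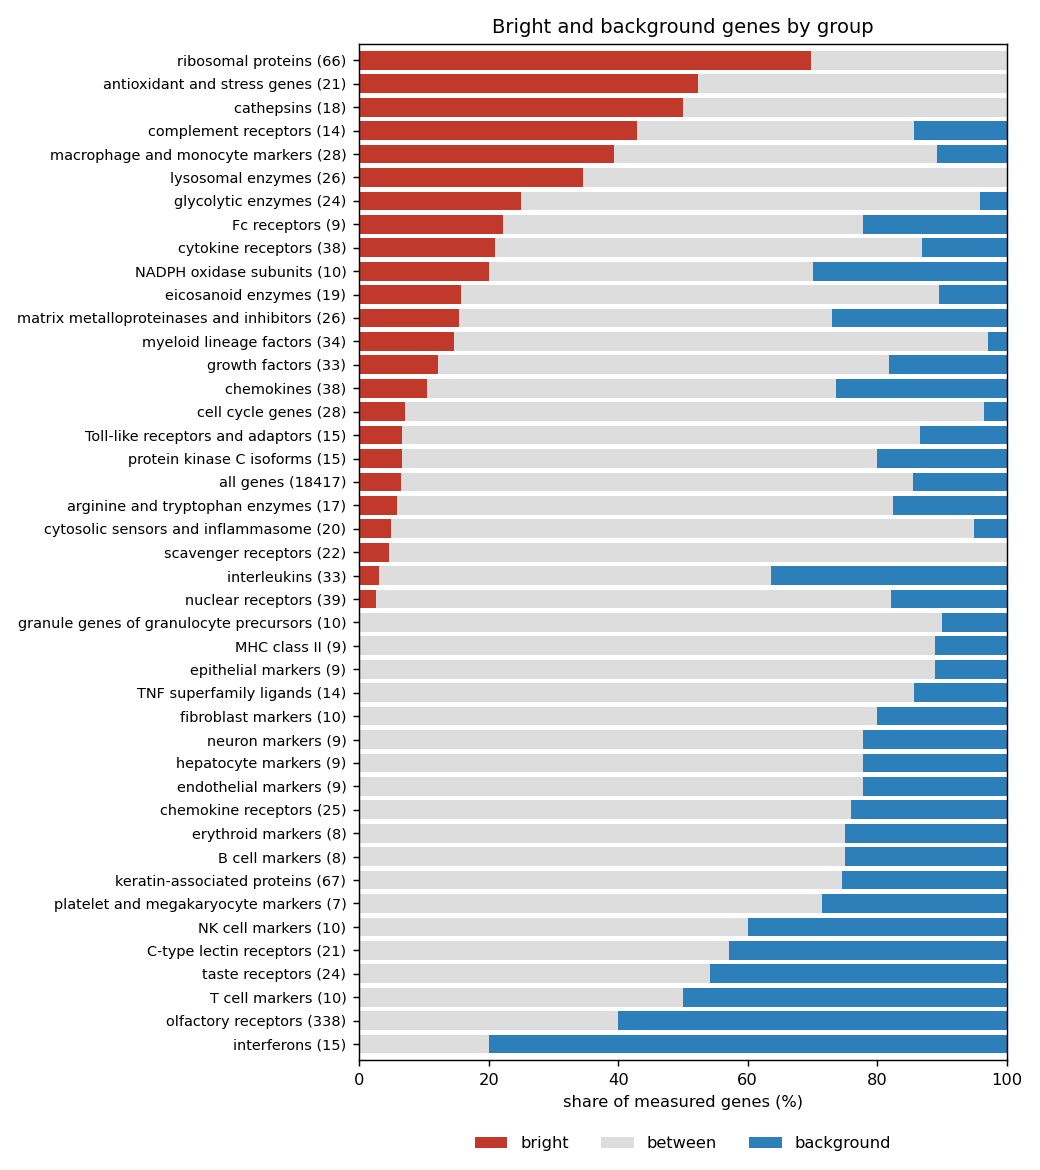
Share of bright, intermediate and background genes in each group. Bars give the percentage of measured genes, with their number in parentheses, that were above the 90th percentile in all 3 DMSO arrays (bright), below the lower quartile in all 3 (background) or neither (between). Ribosomal protein, antioxidant and cathepsin genes have the largest bright shares, and interferon and olfactory receptor genes the largest background shares.

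A few secreted factors were very bright, while most were not. Of 33 interleukin genes 1 was bright and 12 were background. IL1B, the inflammatory cytokine released through the inflammasome, read 12.21, 11.64 and 11.11, above about 99.3% of all clusters. IL23A, a subunit of interleukin 23, followed at 9.20, 7.64 and 7.18. IL6 (3.75, 3.03 and 3.16), IL10 (3.98, 3.68 and 3.91) and IL12B (mean 4.02 ± 0.32) stayed in the olfactory receptor range, and IL12A was background. Of 15 interferon genes 12 (80.0%) were background, IFNB1 and IFNG among them. TNF, which encodes tumor necrosis factor, read 10.15, 8.29 and 8.22, so that its passage 8 value lay at the 90th percentile while its passage 6 value was far above it.

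Chemokines were divided in the same way, with 4 bright and 10 background genes of 38. CXCL8, which attracts neutrophils, read 11.20, 10.81 and 10.29. CCL3 (11.20, 10.16 and 9.28), CCL20 (10.79, 9.25 and 9.41) and CCL5 (9.67, 8.89 and 8.75) were also bright. CXCL9, CXCL10 (3.29, 3.35 and 3.17) and CXCL11, which are known as targets of interferon gamma, were all background. Among growth factors 4 of 33 were bright. SPP1, which encodes osteopontin, read 11.23, 10.64 and 10.53. PDGFA (mean 10.79 ± 0.31), TGFB1 (10.24 ± 0.36) and the progranulin gene GRN (10.21 ± 0.28) were the others.

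**Figure D4:**
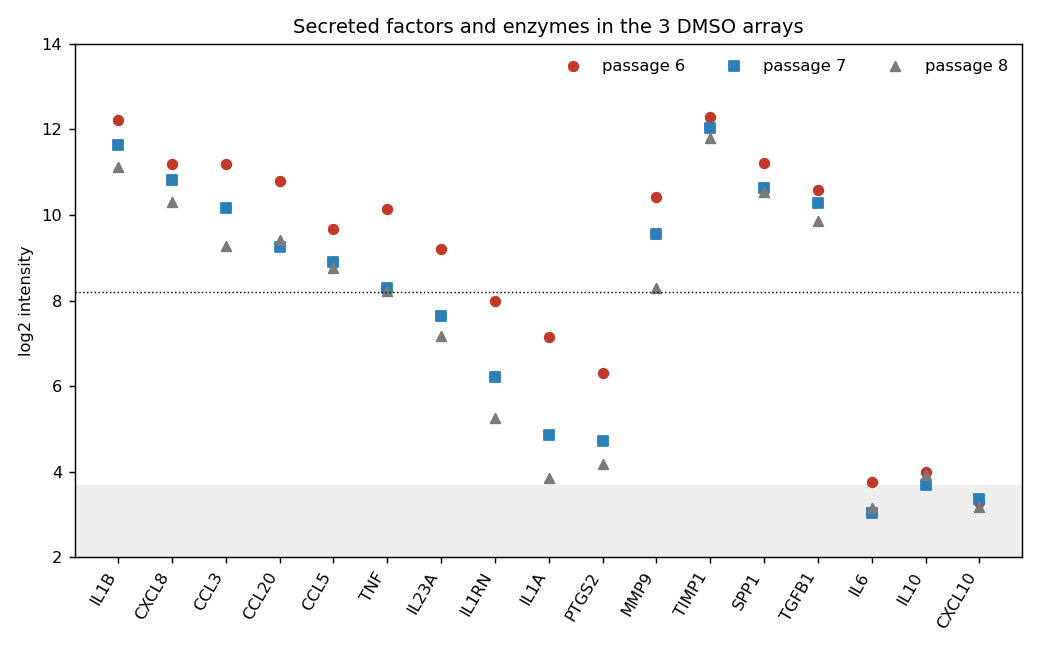
Secreted factors and selected enzymes in the DMSO arrays. Each column is a gene and each point is 1 array, at passage 6, 7 or 8, on the log2 intensity scale. The shaded area lies below the mean lower quartile and the dotted line is the mean 90th percentile. The passage 6 point is the highest for each gene from IL1B to TGFB1, while IL6, IL10 and CXCL10 lie at the bottom of the scale.

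Of the enzymes that make eicosanoids, PTGS1, the constitutive cyclooxygenase, was bright and steady at 10.46, 10.55 and 10.37. The inducible cyclooxygenase PTGS2 read 6.30, 4.70 and 4.17. ALOX5AP, the helper protein of leukotriene synthesis, averaged 9.87 ± 0.53 and LTA4H averaged 8.76 ± 0.23. Of 17 arginine and tryptophan enzymes only ODC1, the first enzyme of polyamine synthesis, was bright (9.39, 8.73 and 8.90). NOS2, the inducible nitric oxide synthase, averaged 4.36 ± 0.11, and ARG1 (2.69, 2.65 and 2.91), IDO1 and IDO2 were background.

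The oxidase genes used by phagocytes were read with 2 bright of 10. The small GTPase gene RAC2 read 11.05, 10.73 and 10.58 and RAC1 averaged 9.63 ± 0.18. CYBB, the catalytic subunit of the phagocyte oxidase, read 8.25, 7.97 and 8.62, close to the 90th percentile, whereas NOX1, NOX3 and NOX4 of other tissues were background.

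Lysosomal genes were read in 2 lists. Of 18 genes for cathepsins and their inhibitors 9 (50.0%) were bright and none was background, with a median of 8.55 against 5.54 for all genes. CTSD read 11.06, 10.32 and 10.54, CTSL averaged 10.52 ± 0.34 and CTSB averaged 10.39 ± 0.35. Of 26 other lysosomal enzymes and related genes 9 were bright, led by the thioesterase PPT1 (11.84, 11.65 and 11.86). CHIT1, a chitinase of lipid-laden macrophages, averaged 4.16 ± 0.034. CHI3L1, a secreted chitinase-like protein, was in contrast among the 25 brightest genes of the array at 12.08, 12.30 and 12.29.

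Matrix metalloproteinases and their inhibitors were split, with 4 bright and 7 background of 26. TIMP1, an inhibitor, read 12.30, 12.03 and 11.80. MMP14, a membrane-bound protease, averaged 11.38 ± 0.13. The gelatinase gene MMP9 was bright in all arrays but differed between them at 10.42, 9.55 and 8.30. MMP12, the elastase of macrophages, was background at 3.43, 2.92 and 3.05.

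Of 21 antioxidant and stress genes 11 (52.4%) were bright and none was background. FTL, the ferritin light chain, read 10.87, 10.51 and 10.16 and GPX1 averaged 10.04 ± 0.15. Of 24 glycolytic genes 6 were bright, with GAPDH (mean 11.54 ± 0.22) and PKM (11.12 ± 0.15) on top, and LDHC, the testis form of lactate dehydrogenase, was background.

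Of 28 cell cycle genes 2 were bright. CDKN1A, an inhibitor of cyclin-dependent kinases, read 9.99, 9.18 and 8.85, and the cyclin gene CCND1 averaged 8.65 ± 0.15. The mitotic kinase CDK1 was background (2.45, 2.51 and 2.88), and the proliferation marker MKI67 averaged 4.57 ± 0.83.

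The brightest of all genes were of several kinds. Among the 25 with the highest means, 15 were protein coding and 6 were small nucleolar RNA genes. FAF2 led with 13.20, 13.38 and 13.34, followed by SNORD13 (mean 13.03 ± 0.084), RNU2-1, RMRP and MALAT1. Among the protein-coding ones were PLCG2, a phospholipase of immune receptor signalling (12.37 ± 0.11), LAPTM5, ITGB2, EEF1A1, ACTG1 and ACTB. By RNA class, 59 of 175 small nucleolar RNA genes (33.7%) were bright, against 1091 of 16900 protein-coding genes (6.5%), 3 of 634 long noncoding RNA genes and 2 of 173 microRNA genes.

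The microRNA clusters of this array read the precursor or its host transcript. The 2 bright ones were MIR30E at 8.87, 10.22 and 10.05 and MIR222 at 9.20, 9.21 and 8.77. MIR221, the genomic neighbour of MIR222, missed the class by its passage 6 value and read 8.11, 9.08 and 8.81. Their mature sequences from RefSeq (GRCh38.p14) are given with the seed, bases 2 to 8, in capitals, because the neighbours share it. MIR30E lies on chromosome 1 and the other pair on chromosome X.
hsa-miR-30e-5p: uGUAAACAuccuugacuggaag
hsa-miR-30e-3p: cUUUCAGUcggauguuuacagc
hsa-miR-222-3p: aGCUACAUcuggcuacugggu
hsa-miR-222-5p: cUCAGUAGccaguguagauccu
hsa-miR-221-3p: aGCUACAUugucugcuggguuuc

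The seed GCUACAU is identical in the 3p arms of MIR221 and MIR222. The level of the mature forms was not measured.

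The 3 DMSO arrays differed little for most genes. The median SD over genes was 0.19, with 0.154 for background, 0.196 for intermediate and 0.224 for bright genes. The steadiest bright genes included TMEM214 (8.64, 8.63 and 8.63), the kinase gene PAK2 (9.13, 9.11 and 9.12), PPP2R2A, SARAF and the ubiquitin gene UBB (9.94, 9.96 and 9.97). Only 33 genes had an SD over 1, and 1073 genes (5.83%) had an SD over 0.5.

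The passage 6 array stood apart from the others. It differed from passage 7 by more than 1 log2 unit in 455 genes and from passage 8 in 628 genes, whereas passages 7 and 8 differed that far in 113. Of the 1073 genes with an SD over 0.5, passage 6 was the farthest of the 3 arrays from the other pair in 808 (75.3%), passage 8 in 197 and passage 7 in 68. In those 808 genes passage 6 was higher in 272 and lower in 536. The median SD was 0.112 for passages 7 and 8 alone.

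Genes with the highest spread included small nuclear RNAs and cytokines. RNU4-2, a small nuclear RNA of the spliceosome, read 9.03, 6.10 and 4.98. IL1A, which encodes the other agonist of the interleukin 1 receptor, read 7.15, 4.85 and 3.85, and IL1RN, the antagonist, read 7.98, 6.21 and 5.25. FABP4, a fatty acid carrier of macrophages and adipocytes, read 5.22, 2.90 and 2.73. ANKRD36 ran the opposite way at 3.48, 5.85 and 6.42. STC1, REXO1L1P, ANKRD36B, SCARNA8, GPR52, RNU5D-1, TFPI2, P3H2, RNU4-1 and TMEM14EP completed the 15 genes of highest spread.

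The passage 6 difference was tested in limma over all 21214 clusters with a symbol. The contrast was chosen with earlier results of these arrays known, so its calls describe how this array differed and are not evidence of an effect of passage. There was 1 DMSO array at passage 6, so its own spread could not be measured and was taken to equal that of passages 7 and 8 over the 4 treatments. At an adjusted p under 0.05, 561 clusters (2.64%) were higher and 1064 (5.02%) were lower at passage 6 than the mean of passages 7 and 8. Counted over the 18417 genes, from which the lists below are drawn, 340 (1.8%) were higher and 818 lower. With the spread taken from the DMSO and punicalagin arrays alone 39 clusters were called, and without the passage 8 DMSO array 194 were.

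Some cytokine genes were called higher at passage 6, while the cytosolic sensor genes that were called were all lower. Of 33 interleukin genes 4 (12.1%) were called higher, against 2.64% of all clusters, and none lower. IL1A was higher by 2.80 ± 0.35 (SE, adjusted p = 0.00483 in limma), IL1RN by 2.25 ± 0.36 (adjusted p = 0.0122) and IL23A by 1.79 ± 0.29 (adjusted p = 0.0125). IL7 was the fourth, at background in all arrays. TNF was higher by 1.89 ± 0.26 (adjusted p = 0.00792), or 3.70-fold, and kept its call in every alternative. IL1B was not called, with a difference of 0.84 ± 0.41 (adjusted p = 0.246). Of 20 cytosolic sensor and inflammasome genes 12 were lower at passage 6 and 8 higher, with a median difference of -0.16 against 0.04 over all genes. Of these 20 genes 3 were called lower, against 5.02% of all clusters, and none higher. They were NAIP (-1.12), NLRC5 (-0.76) and MAVS (-0.70). Also called lower were the cytokine gene TNFSF13B (-0.89) and the interferon receptor gene IFNAR2 (-0.77).

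Of 38 chemokine genes 4 (10.5%) were called higher, against 2.64% of all clusters, and none lower, with CCL3 (1.48 ± 0.32, adjusted p = 0.0279 in limma), CCL4 (7.00, 5.71 and 5.44) and CCL2 (5.60, 4.44 and 4.62) among them. PTGS2 was higher by 1.86 ± 0.42 (adjusted p = 0.0296), and TNFAIP6, a secreted hyaluronan-binding protein induced by inflammation, by 1.98 ± 0.48 (adjusted p = 0.038). Of 34 myeloid lineage factors 4 (11.8%) were called higher, against 2.64% of all clusters, and 1 lower. Those higher were RUNX3 and the immediate early factors EGR1 (1.32 ± 0.28, adjusted p = 0.0251), FOS (8.88, 7.52 and 7.71) and JUNB (8.79, 8.11 and 7.58). KLF6 was the 1 called lower, with a difference of -0.82, and JUN was not called. IL23A, CCL3, PTGS2, TNFAIP6 and EGR1 lost the call when the passage 8 DMSO array was left out. IL1A, IL1RN and these genes lost it when the spread came from the DMSO and punicalagin arrays alone. Of 8 alternatives, PTGS2 and TNFAIP6 lost the call in 4, CCL3 and EGR1 in 3, IL23A in 2, and IL1A and IL1RN in 1. Leaving out punicalagin passage 7 or passage 8 was the same fit for this contrast, yet counts as 2 of the 8.

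Of the 28 macrophage markers 1 was called higher and 1 lower, near the shares over all clusters (2.64% and 5.02%). TREM1, an amplifying receptor of myeloid cells, was called higher (6.45, 5.50 and 5.11) and ITGAX lower (11.07, 11.81 and 11.69, adjusted p = 0.0494 in limma). CD68 and LYZ were not called, with adjusted p of 0.0535 and 0.341.

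Genes called lower at passage 6 were led by ANKRD36 (adjusted p = 0.00485 in limma), whose passage 6 value of 3.48 was below that array's lower quartile, so no fold is given. GPR52 read 5.54, 7.71 and 7.59, and NKTR, a cyclophilin-related gene, read 7.27, 8.86 and 8.83. RNPC3, a protein of the minor spliceosome, read 7.59, 8.88 and 9.44. The calls of GPR52, NKTR and RNPC3 were lost in 3, 4 and 3 of 8 alternatives, and that of ANKRD36 in none. CTSK, a bone-resorbing cathepsin, read 5.68, 6.97 and 6.82. Among RNA classes, 10 of 20 small nuclear RNA genes were called higher and 1 lower. Of the 16900 protein-coding genes 287 were called higher and 754 lower. Over all 18417 genes, most of them protein coding, 340 (1.8%) were called higher and 818 lower. Ribosomal protein genes were shifted in the same array, with 61 of 66 higher at passage 6 by a median of 0.45 against 0.04 over all genes. Olfactory receptor genes were higher in 254 of 338, with a median of 0.22. These classes moved with passage 6 beside the cytokine genes, and their part in the result was not tested.

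The punicalagin arrays of the same passages gave a second view of passage 6. TNF in punicalagin read 9.01, 8.13 and 7.86 at passages 6, 7 and 8, and CCL3 read 10.30, 9.87 and 9.70. IL1A in punicalagin was low throughout at 3.67, 3.85 and 3.33. The small nuclear RNA RNU4-2 read 8.96, 6.28 and 8.12 there. Olfactory receptor genes in punicalagin were higher at passage 6 in 267 of 338, with a median of 0.22, as in DMSO. Ribosomal protein genes were higher in only 20 of 66 in punicalagin, with a median of -0.1. A test of the difference between the passage 6 effects in DMSO and in punicalagin called 1 of 21214 clusters (0.00471%), FABP4, and 2379 clusters had an unadjusted p under 0.05. For IL1A this difference was 2.71 ± 0.50 (adjusted p = 0.238 in limma) and for TNF 0.87 ± 0.37 (adjusted p = 0.429), so most passage 6 effects were neither shown to differ between the treatments nor shown to be shared.

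No cluster (0%) was called between passages 8 and 7 over the 4 treatments in limma, where 591 had an unadjusted p under 0.05. The cell cycle genes nonetheless differed between the DMSO arrays of these passages. In DMSO 26 of 28 were higher at passage 8, with a median difference of 0.60 against 0.02 over all genes. RRM2, a subunit of ribonucleotide reductase, read 3.75, 3.10 and 5.0, MKI67 read 3.98, 4.21 and 5.51, and TOP2A, a topoisomerase of dividing cells, read 4.56, 4.91 and 5.93. BUB1, a checkpoint kinase of mitosis, read 4.45, 4.62 and 5.67. At passage 7 the RRM2 value was below that array's lower quartile and the MKI67 value was under 4.58, in the olfactory receptor range. In the other treatments the medians were 0.05 for punicalagin, -0.22 for myricetin and -0.04 for quercetin, with 16, 5 and 13 genes higher at passage 8. With 1 array per passage in DMSO this difference has no replicate check.

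**Figure D5:**
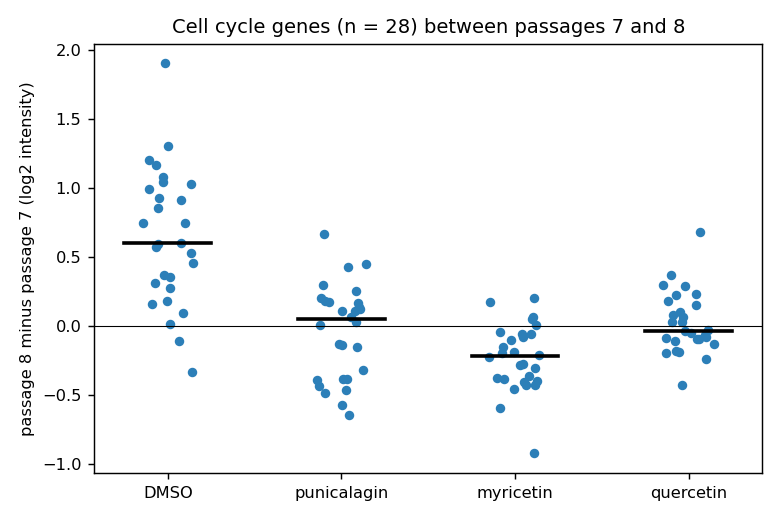
Difference between passages 8 and 7 for 28 cell cycle genes in each treatment. Each point is 1 gene, as the passage 8 minus the passage 7 array on the log2 scale, and the bar is the median. The DMSO points have a median of 0.60 and 26 of 28 lie above 0, and the medians of the other treatments lie between -0.22 and 0.05.

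Set against the cells given a compound, most background and bright genes of the DMSO arrays kept their class. Of the 2671 background genes, 2402 (89.9%) were also below the lower quartile in all 7 compound-treated arrays, and none was above the upper quartile in all 7. Of the 1179 bright genes, 956 (81.1%) were bright in those arrays too. In limma, DMSO against the mean of the 3 compound means, 131 clusters (0.618%) were higher in DMSO and 508 (2.39%) were lower. At the level of genes, 464 (2.5% of all genes) were called lower in DMSO. Of these, 61 were bright in DMSO and 7 were background, where 6.4% of all genes were bright and 14.5% background.

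FABP4 and the scavenger receptor genes CD36 and MSR1 lay furthest below their level with a compound among all genes. FABP4 averaged 3.62 ± 1.39 in DMSO and 9.37 over the compounds (adjusted p = 3.49e-05 in limma). Since its DMSO values at passages 7 and 8 were below the lower quartile, the intensity difference of -5.75 gives only a lower limit for the size of the change. It was -6.56 without the passage 6 DMSO array. CD36 averaged 6.16 in DMSO and 10.48, 9.61 and 10.15 with punicalagin, myricetin and quercetin, a difference of -3.92 ± 0.20 (SE, adjusted p = 6.27e-06). MSR1 differed by -3.63 ± 0.24 (adjusted p = 1.46e-05). Of the 22 scavenger receptor genes 10 (45.5%) were called lower in DMSO, against 2.39% of all clusters, and none higher, with CD163, OLR1, LRP1 and MERTK among the 10. CD14 was not called, with a difference of -0.94 ± 0.41 (adjusted p = 0.323).

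Other called groups were smaller. Of 15 Toll-like receptor and adaptor genes 4 (26.7%), TLR1, TLR2, TLR4 and CD180, were lower in DMSO, against 2.39% of all clusters. TLR2 lost the call with passage as a block (adjusted p = 0.0621 in limma, against 0.0428). Of 26 genes for metalloproteinases and their inhibitors 7 (26.9%), the inhibitors TIMP2 and TIMP3 among them, were lower. MMP8, another of these, was background in DMSO (3.26, 2.75 and 2.47) and averaged 5.57 over the compounds (adjusted p = 1.39e-05 in limma). Its change therefore has only a lower limit. TDO2, an enzyme of tryptophan breakdown, differed by -3.50 ± 0.36, TGFB3 by -2.22 ± 0.12 and SLC11A1, a metal transporter of phagosomes, by -2.43 ± 0.13. SPP1, bright in DMSO at 10.80, was higher still with compounds at 12.67. NR1H3 (-1.75 ± 0.10) and PPARG (-1.09 ± 0.10) were lower in DMSO too. The calls of MMP8 and TGFB3 were lost when the 7 other arrays were pooled into 1 group, in which their level with quercetin (7.81 and 8.80) lay apart from that with punicalagin (4.44 and 6.07).

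No interleukin or interferon gene was called in either direction between DMSO and the compounds in limma, where 4 interleukin and 2 interferon genes had an unadjusted p under 0.05. Over all clusters the shares were 0.618% higher and 2.39% lower, so lists of 33 and 15 genes could hold no call without standing apart. Genes higher in DMSO included SNORA62 (11.85 against 10.21, adjusted p = 0.00324 in limma), SESN3, a stress-induced sestrin (6.14 against 4.88, adjusted p = 0.00048), and IRAK3, an inhibitor of Toll-like receptor signalling (6.90, 7.20 and 7.78, against 6.06, adjusted p = 0.00224). MLKL, the executor of necroptosis, differed by 0.94 ± 0.11 and SOD2, the mitochondrial superoxide dismutase, by 0.80 ± 0.13. MYBPH and PLAGL1 were higher by 1.23 ± 0.17 and 1.05 ± 0.16. CYP1B1, an oxidase of the aryl hydrocarbon receptor response, was higher by 0.95 ± 0.14. Its mean was 8.75 in DMSO, 8.76 with punicalagin, 8.34 with myricetin and 6.30 with quercetin, so the mean with quercetin lay apart from the others. The calls of IRAK3 and CYP1B1 were lost when the 7 other arrays were pooled into 1 group (adjusted p = 0.066 and 0.668 in limma). Fc receptor genes were called in both directions. Of the 9 measured, 4 (44.4%) were lower in DMSO, namely FCER2 by a difference of -1.97, FCMR by -1.13, FCGRT by -0.77 and FCER1G by -0.74. FCGR2A (1.27 ± 0.30, adjusted p = 0.0446) and FCGR2B (1.12 ± 0.25, adjusted p = 0.0378) were called higher, but lost the call in 11 and 10 of 16 alternatives.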

How the data were processed

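Human Gene 1.0 ST arrays (Affymetrix) were hybridised with RNA from THP-1 cells, 10 arrays in all. The authors deposited log2 intensities per transcript cluster, background corrected, quantile normalized and summarised by RMA, named in the methods with Partek 7.0 and in the submitters' processing notes also with Affymetrix Expression Console. The genome build was not given in the sources used here. Quantile scaling sets the arrays to nearly the same distribution, so a change shared by most genes is not visible, and the number of arrays limits the precision. No depth applies.

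Clusters were named through the platform's annotation: 19460 had 1 symbol, 1754 several and 12083 none. A lookup of current symbols by gene ID renamed 0 genes. Genes were read from single-symbol clusters, and 769 had more than 1. Samples were grouped by treatment and passage as the labels give them. Contrasts were fitted with limma 3.58.1 (R 4.3.3, lmFit and eBayes, Benjamini-Hochberg adjustment) over the 21214 clusters with any symbol: passage 6 against passages 7 and 8 within DMSO, that difference against the one in punicalagin, passage 8 against 7 with treatment as a factor, and DMSO against the mean of the 3 compound means. A call was an adjusted p under 0.05. The titles call the arrays biological replicates, and p-values measure the spread between arrays of 1 line at different passages. The fits were tested on simulated data.

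The text names the 5 markers, the highest and lowest members of each of 38 lists, the 25 brightest genes, the most and least variable genes and the leading called genes of each contrast; some of each were left out for length, and a few others were chosen after their values were seen. The lists (691 of 758 genes measured) and the thresholds were chosen with earlier results of these data known. One listed gene was matched by its current symbol, RIGI. Alternatives were the percentile, the choice of cluster, a low-value filter, trend and robust estimation, all 33297 clusters, other groupings, passage as a block and leaving out each array. The correlation of deviations from group means was 0.362, -0.097 and 0.319 between DMSO and punicalagin at passages 6, 7 and 8. It was -0.113 and -0.015 with myricetin and 0.033 and 0.002 with quercetin at passages 7 and 8. Between different passages it reached -0.442 (DMSO passage 6, punicalagin passage 8) and 0.331 (DMSO passage 7, punicalagin passage 8). The 2 arrays of myricetin or of quercetin mirror each other in such deviations, so this check cannot decide whether passage matters. Passage was not a term of the DMSO against compounds fit, and the count with passage as a block is given below. Upstream and microRNA sequences are RefSeq's; SPI1 and LYZ have no entry in the table used.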

Additional observations from a re-analysis of the deposited data

Results flagged for a closer look

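FABP4 was the 1 cluster whose passage 6 difference was called to differ between treatments by the interaction test. Its DMSO arrays read 5.22, 2.90 and 2.73 at passages 6, 7 and 8, and its punicalagin arrays read 8.78, 8.85 and 9.10. The passage 6 difference in DMSO exceeded that in punicalagin by 2.61 ± 0.27 (SE, adjusted p = 0.0443 in limma). The call was lost with trend and robust estimation, with the spread taken from the DMSO and punicalagin arrays alone, and without the DMSO array of passage 7 or that of passage 8. The adjusted p ranged from 0.00805 to 0.799 over 8 alternatives. The DMSO values at passages 7 and 8 were below the lower quartile. Each passage 6 value is a single array, and no cause was tested.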

How the results depend on the processing

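With 3 arrays from 1 line, at 1 array per passage, and no measure of probe affinity, background does not mean absence and rank does not mean abundance. The background count (2671) was 4046 with the quartile set over single-symbol genes, 467 below the 10th percentile and 5836 below the olfactory receptor 95th percentile, a yardstick chosen after seeing the data. The bright count (1179) was 4302 above the 75th and 404 above the 95th percentile. Leaving out each DMSO array gave 2771 to 2947 background and 1256 to 1421 bright genes, and a median SD of 0.112 (without passage 6) to 0.181.

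The 1625 passage 6 calls became 39 in the DMSO and punicalagin arrays alone and 194 to 3327 leaving out single arrays, with 670 without DMSO passage 7, 194 without DMSO passage 8, and 3327 without punicalagin passage 7 or 8, the same fit for this contrast. The interaction called 0 clusters in the DMSO and punicalagin arrays alone and with trend and robust estimation, 10 over all clusters, and 0 to 720 leaving out arrays, with 0 without DMSO passage 7 or 8 and 720 without punicalagin passage 8. DMSO against compounds (639) gave 784 with passage as a replicate block, 1000 with passages 7 and 8 only, 225 with compounds pooled and 334 to 1183 leaving out arrays: 1183 without DMSO passage 6, 391 without DMSO passage 7, 358 and 382 without myricetin passages 7 and 8, and 406 and 334 without quercetin passages 7 and 8. Passage 8 against 7 gave 0 in every fit. The causes were not tested. Of 376 alternatives over 31 gene tests, 317 kept the call, 59 lost it and 0 reversed. For each test of the passage 6 difference in DMSO, these counts include the identical fits without punicalagin passage 7 and without passage 8 separately.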
